A study of Mus musculus with 12 samples.

Results

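Constitutive promoter domains are stretches of accessible chromatin at the starts of protein-coding genes that were found at every stage of an in vitro motor neuron differentiation. They were chosen by the deposited ATAC-seq lists themselves. A member was a domain of the progenitor list, at least 150 bp wide and on chromosomes 1 to 19, X or Y, that overlapped a domain in each of the other 5 lists by at least 1 bp and lay within 1 kb of a transcription start site (TSS) of a protein-coding gene. This rule gave 12522 members, out of 41544 progenitor domains of that width and 87916 progenitor domains of any width on these chromosomes.

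ATAC-seq cuts open chromatin with a transposase, so that reads pile up where DNA is free of nucleosomes. Mouse embryonic stem cells (ESCs) were differentiated as embryoid bodies (EBs) into spinal motor neurons, and each of the 6 groups had 2 samples of 50000 cells. EBs before patterning and progenitors came from the parental line Ainv15(iCre), and the progenitors had received retinoic acid (RA, 1 µM) and the Hedgehog agonist SAG (0.5 µM) for 2 days. The other 4 groups were collected at day 4 of the same RA and SAG treatment. Ainv15(iFlag.Hoxc6), Ainv15(iFlag.Hoxc9) and Ainv15(iFlag.Hoxc10) cells were given the inducer doxycycline (Dox) at 3 µg/mL over the final 48 h. They are named iHoxc6, iHoxc9 and iHoxc10 here. The no Dox group was Ainv15(iFlag.Hoxc6) left uninduced. Each induced line carries a single copy of 1 Flag-tagged Hox gene at the HPRT locus. Every list was made from both samples of a group, so the values have no replicate error, no difference between lists could be tested, and read depth is unknown. EBs and progenitors differ from the day 4 groups in cell line. The no Dox list has a different column format and belongs to a later set of sample records. Its deposited name gives another day than its label and a p threshold, which no other list names. It is treated as day 4 after its label, but its day is thus uncertain for every no Dox length below, and cell line, set of records and possible calling settings cannot be told apart from the comparisons that use it.

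Most mammalian promoters lie in CpG islands, stretches rich in G, C and the dinucleotide CpG that tend to stay unmethylated and free of nucleosomes. Genes that every cell uses, such as those for ribosomes, RNA polymerase or the respiratory chain, usually start in such islands, and their promoters often carry short sites for broadly expressed factors such as Sp and Klf proteins, NRF1, NF-Y, ETS factors, YY1 and CREB. Promoters of tissue-specific genes more often lack a CpG island and more often have a TATA box.

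The sequences below show such sites in members that belong to core cellular machinery. Each is the 150 bp directly upstream of an annotated TSS, read in the direction of the gene from GRCm38, patch p6, and it lay wholly inside a member and overlapped no annotated exon. Capitals mark exact matches on either strand. Sp and Klf factors were searched with GGGCGG, NF-Y, a factor of several subunits, with CCAAT, and ETS factors such as GABP with CCGGAAG. NRF1 was searched with GCATGCGC, YY1 with AAGATGGCG, ZNF143 with ACTACAATT and ZBTB33, also known as Kaiso, with CTCGCGAG. The cyclic AMP response element (CRE), bound by CREB and ATF factors, was searched with TGACGTCA. The E-box, bound by USF and MYC factors, was searched with CACGTG. The TATA box was searched with TATAAA, which on its reverse strand overlaps TTTAT, the core of posterior Hox sites. CTCF was searched with its consensus, and TAAT, the core of other Hox sites, is not in capitals. For a motif, the gene with the most different motifs in its window was taken, and several motifs gave the same gene. The windows were thus chosen to be rich in sites and do not stand for members in general.
Rpl23a: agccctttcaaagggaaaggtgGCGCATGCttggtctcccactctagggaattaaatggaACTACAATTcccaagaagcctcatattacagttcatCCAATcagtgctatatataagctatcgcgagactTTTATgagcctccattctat
Rplp2: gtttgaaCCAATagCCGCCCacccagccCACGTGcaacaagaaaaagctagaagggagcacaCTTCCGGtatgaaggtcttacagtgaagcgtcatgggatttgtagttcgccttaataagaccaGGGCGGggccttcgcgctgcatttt
Eif3f: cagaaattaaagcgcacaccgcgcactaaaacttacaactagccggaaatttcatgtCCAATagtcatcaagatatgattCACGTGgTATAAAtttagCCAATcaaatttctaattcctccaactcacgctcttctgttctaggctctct
Mrpl40: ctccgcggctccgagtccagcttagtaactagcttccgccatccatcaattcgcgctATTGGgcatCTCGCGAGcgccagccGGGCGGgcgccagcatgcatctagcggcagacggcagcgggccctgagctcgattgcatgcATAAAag
Taf2: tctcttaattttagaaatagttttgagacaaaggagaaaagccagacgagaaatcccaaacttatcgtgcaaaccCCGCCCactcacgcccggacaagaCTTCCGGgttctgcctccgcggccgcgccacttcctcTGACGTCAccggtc
Atp6v0a1: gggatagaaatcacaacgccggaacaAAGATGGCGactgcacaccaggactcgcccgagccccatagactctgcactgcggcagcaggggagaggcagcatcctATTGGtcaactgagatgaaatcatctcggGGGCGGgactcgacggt

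These windows differ in composition and in which sites they hold. The window of Rpl23a (chr11:78183585-78183734, minus strand), a protein of the large ribosomal subunit, held an NRF1, a ZNF143 and an NF-Y match, the last with its first base 54 bp before the TSS, and had a GC content of 42.7%. The window of Rplp2 (chr7:141447220-141447369, plus strand), an acidic ribosomal stalk protein, held ETS, NF-Y and E-box matches and 2 Sp/Klf matches. That of Eif3f (chr7:108934267-108934416, plus strand), a subunit of translation initiation factor eIF3, held 2 NF-Y matches, an E-box and a TATA match at a GC content of 39.3%. Mrpl40 (chr16:18876863-18877012, minus strand), a mitochondrial ribosomal protein, carried the ZBTB33 match, and Taf2 (chr15:55072153-55072302, minus strand), a subunit of the general factor TFIID, carried a CRE that began 14 bp before the TSS. Atp6v0a1 (chr11:101009302-101009451, plus strand), a subunit of the vacuolar proton pump, was the gene taken for YY1.

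The accessible domain around each of these windows was found in every list. At Mrpl40 it measured 1972 bp in EBs, 2003 bp in progenitors, 2236 bp without Dox, 2041 bp in iHoxc6, 1835 bp in iHoxc9 and 1830 bp in iHoxc10. At Atp6v0a1 the lengths were 297, 676, 733, 891, 293 and 511 bp in the same order. The Mrpl40 domain thus kept nearly the same length in all lists, whereas that of Atp6v0a1 was short in EBs and in iHoxc9. Length here is the summed width of all domains of a list that overlapped the member, which says how far accessibility was called and not how strong it was.

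How often promoter domains were held by all lists was set by the rule and is given as a description. Of 14321 progenitor domains at least 150 bp wide at promoters, 12522 or 87.4% (86.9 to 88.0) were found in all 5 other lists, beside 49.8% of all progenitor domains of that width and 30.0% (29.4 to 30.5) of the 27223 distal ones. Intervals of shares are 95% Wilson intervals throughout and cover the counting of domains only. At the other end, 121 promoter domains (0.845%) but 3219 distal domains (11.8%) were found in no other list. Of the 755 promoter domains absent from exactly 1 list, 242 were absent from EBs, 236 from iHoxc9, 206 from iHoxc10, 49 from no Dox and 22 from iHoxc6. The iHoxc9 and iHoxc10 lists were the shortest of the 6, with 63504 and 56232 domains against 87916 to 94875 in the others.

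The share rose with width. It was 29.4% (25.7 to 33.5) for promoter domains of 150 to 199 bp, 39.8% (36.8 to 42.8) at 200 to 299 bp, 71.4% (69.4 to 73.4) at 300 to 499 bp, 95.4% (94.8 to 95.9) at 500 to 999 bp and 99.7% (99.5 to 99.8) at 1000 bp and more. Distal domains of the same widths were found in all lists in 26.2%, 17.1%, 31.5%, 44.3% and 70.1% of cases. The excess of promoters over distal domains was therefore seen from 200 bp upwards. Just inside the width limit, 20 of 92 promoter domains of 150 to 159 bp were held by all lists, and just outside it 52 of 135 of 140 to 149 bp were. A shared domain was mostly shared over much of its width, since the smallest coverage of a member in any other list had a median of 66.5% of its width. In 277 members (2.21%) it was under 10% in at least 1 list, so these were held by a small overlap.

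**Figure D1:**
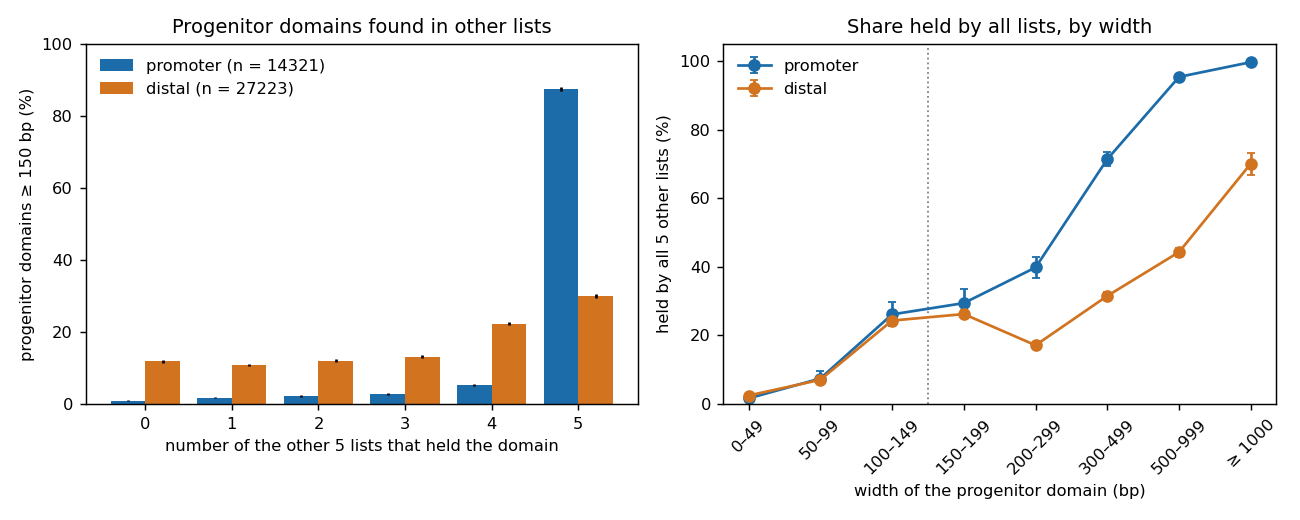
Left, the percentage of progenitor domains at least 150 bp wide (y axis) found in 0 to 5 of the other lists (x axis), for promoter (blue) and distal (orange) domains. Right, the percentage held by all 5 other lists (y axis) by domain width in bp (x axis), with the 150 bp limit dotted. Whiskers are 95% Wilson intervals. Promoter domains pile up at 5 lists (87.4%), and their share reaches 99.7% at 1000 bp and more.

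The members sat on the TSS. The centre of a member lay a median of 31.0 bp downstream of the nearest protein-coding TSS, with quartiles of -47.0 and 138 bp, and 10282 members (82.1%) had it within 250 bp. Of all members, 11587 (92.5%, 92.1 to 93.0) covered at least 1 TSS. Among the 1799 promoter domains of the same minimum width that were not held by all lists, 814 (45.2%, 43.0 to 47.6) did, a difference of 47.3 percentage points (44.9 to 49.6, Newcombe interval). Coverage of a TSS went with width. It was 79.7% in the narrowest quartile of members (up to 618.0 bp) and 98.3% in the widest (1197 bp and more). Of 5002 promoter domains of 1000 bp and more, 4987 were members, so nearly all of the other promoter domains were narrower than that. The part of width in the difference of TSS coverage was not tested.

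Promoters of neighbouring genes that point away from each other can share 1 accessible domain. A TSS of a minus-strand gene to the left of a TSS of a plus-strand gene was in reach of 1070 members (8.54%, 8.07 to 9.05) and of 41 other promoter domains (2.28%, 1.68 to 3.08), which is 6.27 percentage points more (5.34 to 7.04). In all, 1331 members (10.6%) were within 1 kb of the TSS of 2 or more genes. Divergent members were also the wider ones, at 3.78% of the narrowest and 11.9% of the widest quartile.

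The members were rich in GC and in CpG. The central 150 bp had a median GC content of 68% (quartiles 61.3% and 74%) in members and 58% (50% to 66%) in the other promoter domains. In the 8163 distal domains held by all lists it was 53.3%, and in the remaining 19060 distal domains 46.7%. The ratio of observed to expected CpG had medians of 0.857, 0.5, 0.34 and 0.194 in the same order. With a CpG-rich window set at a GC content of at least 55% and a ratio of at least 0.65, 9305 members (74.3%, 73.5 to 75.1) were CpG-rich, against 542 other promoter domains (30.1%, 28.1 to 32.3) and 1241 constitutive distal domains (15.2%, 14.4 to 16.0). Members that were not CpG-rich were commoner among narrow ones, since the CpG-rich share was 58.1% in the narrowest width quartile and 75.7% to 82.8% in the others.

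Sites of broadly expressed factors were more frequent in members than in the other promoter domains. GGGCGG, the site of Sp and Klf factors, was found in the central 150 bp of 5988 members (47.8%, 46.9 to 48.7), of 27.2% (25.2 to 29.3) of the other promoter domains and of 16.0% (15.3 to 16.9) of the constitutive distal domains. The ETS site was found in 984 members (7.86%) and in 1.83% and 1.95% of the comparison domains, and members exceeded the other promoter domains by 6.02 percentage points (5.16 to 6.74). NRF1, a factor of respiratory chain genes, had its site in 242 members (1.93%, 1.71 to 2.19) and in 7 of 1799 other promoter domains (0.389%). YY1 had its site in 224 members (1.79%, 1.57 to 2.04) and in 0 of 1799 other promoter domains, which allows a share of up to 0.213% by the Wilson interval. The CRE (1.22% against 0.667%) and the ZBTB33 site (0.870% against 0.167%) differed in the same direction, with intervals of the difference of 0.0285 to 0.908 and of 0.349 to 0.913 percentage points.

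The centres of the other promoter domains lay farther from the TSS, with 54.2% of them within 250 bp against 82.1% of members, and the part of this in the motif differences was not tested. Other sites had like shares in both classes. NF-Y, whose CCAAT is a short and common sequence, had a match in 16.3% of members and 15.9% of the other promoter domains, a difference of 0.450 percentage points whose interval spanned 0. The intervals of the differences also spanned 0 for ZNF143 (-0.281 to 0.196) and for the E-box (-0.578 to 1.29). AT-rich and distal-type sites were rarer in members. TATAAA was found in 1.45% of members and 3.45% of the other promoter domains, and the Hox cores TAAT and TTTAT in 12.7% and 6.04% of members against 30.8% and 17.1%. The CTCF consensus, known from insulators, was found in 40 members (0.319%), in 0.834% of the other promoter domains and in 584 constitutive distal domains (7.15%, 6.62 to 7.73).

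Composition moved with these shares. Within CpG-rich windows, GGGCGG was found in 54.7% of members and 51.3% of the other promoter domains, a difference of 3.40 percentage points (-0.905 to 7.72), and TAAT in 7.98% and 8.30%. TTTAT stayed rarer in members of this kind, at 3.70% against 6.46% (-2.76 points, -5.18 to -0.938). There the ETS site still differed by 6.66 percentage points (4.95 to 7.78), the NRF1 site by 2.02 (1.12 to 2.37) and the YY1 site by 2.10 (1.34 to 2.41). NF-Y matches were then 4.43 percentage points (1.65 to 6.65) more frequent in members. For TATA the interval of the difference then spanned 0 (0.553 points, -0.525 to 0.987), with 1.11% of members and 3 of 542 other promoter domains (0.554%). For CTCF it also did (0.150 points, -0.556 to 0.252), with 14 of 9305 members and 0 of 542 other promoter domains. The interval for the CRE then spanned 0 (-0.590 to 1.09). Of CpG-rich constitutive distal domains, 28 of 1241 (2.26%, 1.57 to 3.24) held the NRF1 site, near the share of members, 205 of 9305.

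**Figure D2:**
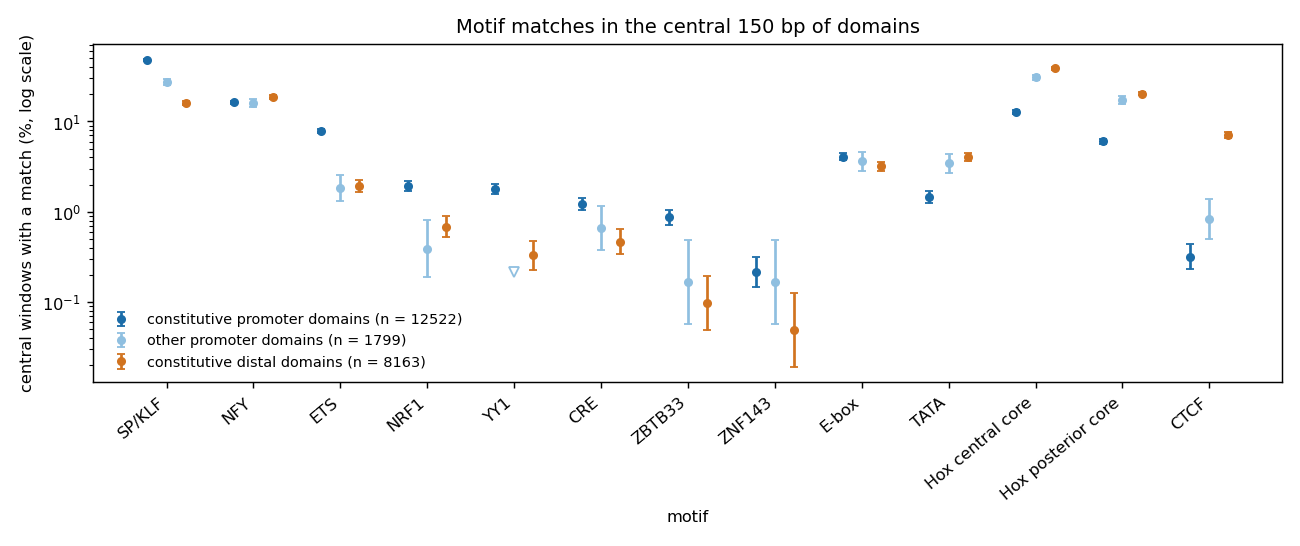
Percentage of central 150 bp windows with a match (y axis, log scale) for 13 motifs (x axis) in members (dark blue), other promoter domains (light blue) and constitutive distal domains (orange). Points are shares and bars 95% Wilson intervals, and the open triangle marks the upper limit where no window matched. Members lie above both other classes for ETS (7.86%), NRF1 (1.93%) and YY1 (1.79%) and below both for the Hox cores. For NRF1 this was not so against CpG-rich distal windows (2.26%).

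The same sites were then read in the 150 bp upstream of the nearest TSS of each member and set beside the 54329 distinct protein-coding TSS of the annotation and the 17156 of them that belong to genes with no member. GGGCGG was found upstream of 58.2% of members' TSS (57.4 to 59.1), of 34.8% of all TSS and of 13.3% (12.8 to 13.8) of those of genes with no member. For ETS these shares were 11.0%, 7.08% and 2.01%, and for NRF1 3.71%, 2.12% and 0.565%. For NF-Y they were 27.2%, 24.0% and 23.4%. TATAAA went the other way, with 2.68% of members' TSS, 6.34% of all TSS and 2052 of the 17156 TSS of genes with no member (11.5% to 12.5%), and so did TAAT with 17.9%, 32.6% and 49.0%.

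Several of these sites were found at preferred distances from the TSS of members. Counted in bins of 20 bp from 300 bp upstream to 100 bp downstream, TATAAA peaked between 40 and 20 bp upstream, the place where a TATA box is known to act, with 138 matches in that bin against a median of 39.50 per bin. NF-Y matches peaked between 80 and 60 bp upstream (921 against 393.5) and CRE matches between 60 and 40 bp upstream (75 against 13.50). ETS and NRF1 matches were most frequent in the last 20 bp before the TSS, at 377 against 97.00 and 145 against 36.00. YY1 matches lay downstream, with 115 between 20 and 40 bp after the TSS against a median of 14.50. The YY1 share was lower in the upstream window (0.950%) than in the centre of the members (1.79%). Members with overlapping windows can enter the same match more than once.

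**Figure D3:**
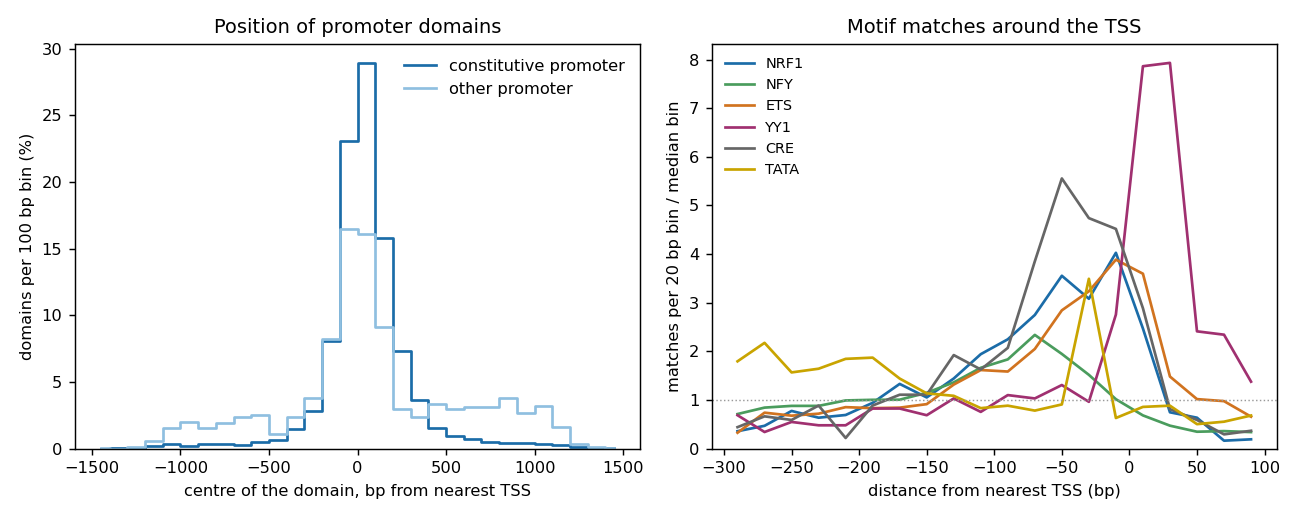
Left, the percentage of promoter domains per 100 bp bin (y axis) by the distance of their centre from the nearest TSS in bp (x axis, negative upstream) for members (dark blue) and other promoter domains (light blue). Right, matches per 20 bp bin relative to each motif's median bin (y axis) by distance from the nearest TSS in bp (x axis) over 12522 members. Members centre on the TSS (median 31.0 bp), TATA matches peak 3.49 times above their median bin and YY1 matches 7.93 times, downstream.

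Which genes have a constitutive promoter domain? Of 21853 protein-coding genes, 12738 (58.3%, 57.6 to 58.9) had at least 1 member within 1 kb of a TSS, and 13034 had a promoter domain of any width in every list. Genes of core cellular machinery nearly all had 1: 483 of 499 genes on 15 lists (96.8%, 94.9 to 98.0). These counts included all 77 mitochondrial ribosomal proteins, 30 Mediator subunits, 13 RNA polymerase II subunits, 36 complex I subunits, 25 BAF and Polycomb genes, 20 aminoacyl-tRNA synthetases, 13 cohesin and condensin genes, 12 MCM and ORC genes and 7 CCT chaperonin genes on the lists. They also included 82 of 85 cytosolic ribosomal proteins, 37 of 39 proteasome subunits, 23 of 24 TATA-binding protein and associated factors and 40 of 41 spliceosome genes. Of 55 Eif genes, which are translation initiation factors and some of their kinases and binding proteins, 51 had 1. The lowest share was that of the V-type ATPase, with 17 of 22 subunits (77.3%, 56.6 to 89.9), an interval that includes the share of all genes.

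The 16 core genes with no member were for the most part paralogs known from single tissues or the germ line. They were the ribosomal protein paralogs Rpl10l, Rpl39l and Rpl3l, of which Rpl3l is a muscle form, the testis and thymus proteasome subunits Psma8 and Psmb11, the germ cell factor Taf7l, Eif4e1b and Eif4ebp3, Eif3j2, the Y-linked Eif2s3y, Sf3b5, and 5 subunits of the V-type ATPase. Of these 5, Atp6v0a4, Atp6v0d2, Atp6v1b1 and Atp6v1g3 had no promoter domain in any list, and Atp6v1e2 had 1 in the no Dox, iHoxc6 and iHoxc10 lists. Taf7l and Eif3j2 had a promoter domain of some width in all 6 lists without meeting the rule. Sf3b5, Rpl39l and Eif4e1b had none in any list.

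Developmentally regulated genes were mixed, with 59 of 98 genes on 6 lists (60.2%, 50.3 to 69.3), near the 58.3% of all genes. All 9 motor neuron progenitor markers and all 12 motor neuron markers had a constitutive promoter domain, including Olig2, Pax6 and Nkx6-1 of the progenitors and Mnx1, Isl1 and Lhx3 of motor neurons, and so did the acetylcholine genes Chat and Slc18a3, which share 1 domain. The Mnx1 member covered no TSS and had its centre at -251 bp from the nearest. A gene can count although a list has no domain within 1 kb of its TSS, where the overlap with the progenitor domain lies farther out. On the 27 lists this was so for Chat in iHoxc9, for Psmb10 of the proteasome in EBs and the 3 induced lists, and for the interneuron gene Foxd3 in iHoxc10. Pan-neuronal genes had 1 in 10 of 13 cases, spinal interneuron markers in 6 of 11, and Hox genes in 16 of 39. Among 14 naive pluripotency genes, Esrrb, Klf2, Klf4, Klf5, Tbx3 and Tfcp2l1 had 1. The core pluripotency factors Pou5f1 and Nanog and the early embryo gene Dppa4 had a promoter domain in the EB list and in no other, and Dppa3 and Dppa5a in none.

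On 6 lists of unrelated tissues, 16 of 1608 genes had a member (0.995%, 0.613 to 1.61), and most of the 1608 were receptor and keratin genes. Of 1461 olfactory and vomeronasal receptors 3 had 1, and of 110 keratin and epidermal genes only Krt10. None of 9 blood and immune markers did (0%, up to 29.9%), and Ptprc, Gata1 and Hba-a1 had no promoter domain in any list. Glial markers (3 of 9), mesoderm and muscle markers (4 of 10) and endoderm markers (5 of 9) had more. The genes with a member on these lists were the transcription factors Gata4, Gata6, Sox17, Foxa2, Tbx6, Mesp1 and Myod1, the receptors Cxcr4, Kdr and Pdgfra, the myelin gene Mbp and the enzyme gene Aldh1l1. The only members of Tbx6, Mesp1 and Myod1 covered no TSS, with centres at -1040, 576 and 699 bp from the nearest. The transcription factors T, Myog and Sox10 of the same lists had no member.

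**Figure D4:**
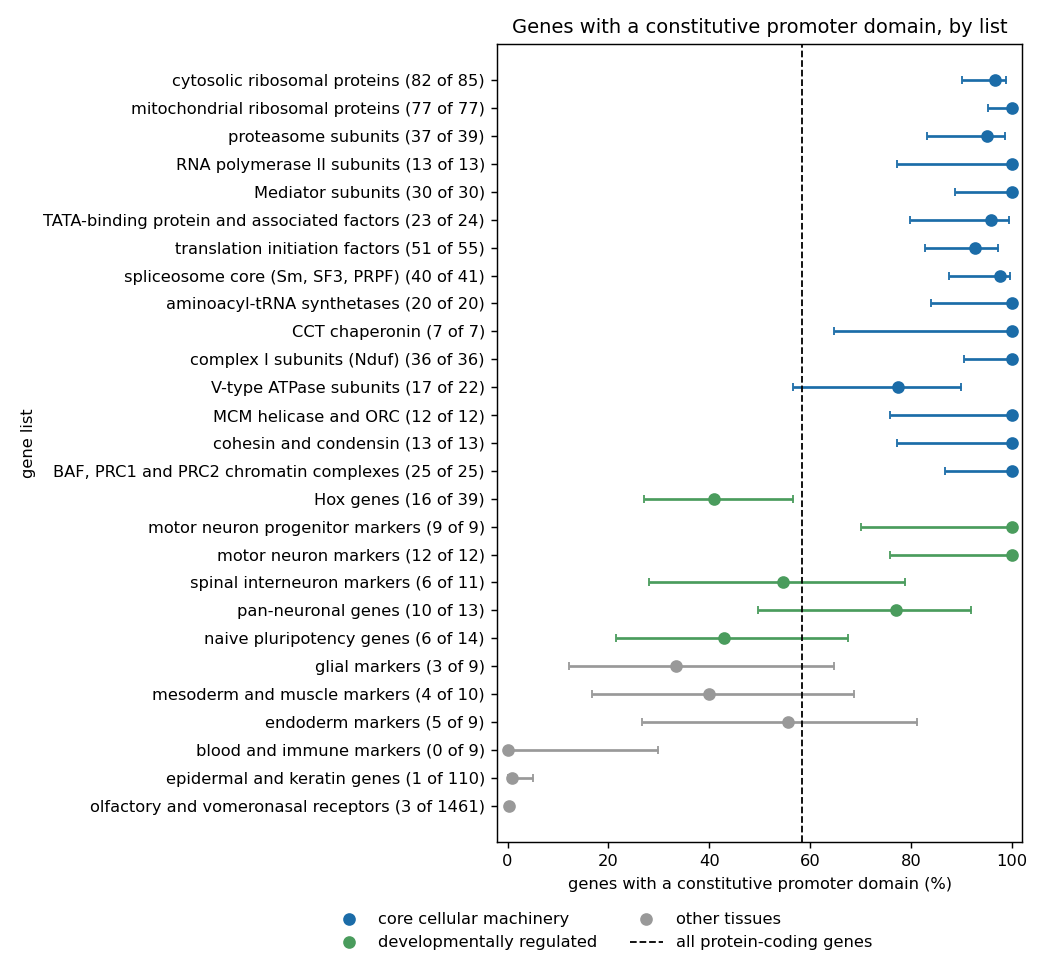
Percentage of genes with a constitutive promoter domain (x axis) on each of 27 gene lists (y axis, counts in parentheses), for core machinery (blue), developmentally regulated genes (green) and other tissues (grey). Bars are 95% Wilson intervals and the dashed line is the share of all protein-coding genes, 58.3%. The points of all core lists lie above the line, and receptors, keratins and blood genes lie near 0.

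Most of the 12738 genes had a single member (11701 genes, 91.9%), and 104 had 3 or more. The most were found at Ank2, an ankyrin of axons, and at Gse1, with 5 each, followed by Arhgef4, the neurotrophin gene Bdnf and Dab2ip, a Ras GTPase-activating protein, with 4 each. Of the Ank2 members, the one at chr3:127498729-127499400 measured 163 bp in EBs and 672, 646, 655, 491 and 430 bp in progenitors, no Dox, iHoxc6, iHoxc9 and iHoxc10, so it was the shortest in EBs. The Ank2 member at chr3:127162212-127162670, with 642, 459, 549, 558, 402 and 350 bp, was the longest there. These Ank2 members thus differed in direction between EBs and the later lists. Both were shorter in iHoxc9 and iHoxc10 than in no Dox and iHoxc6.

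The length of a member was compared between lists next. The median was 739.0 bp in EBs, 886.0 bp in progenitors, 1044 bp without Dox, 837.0 bp in iHoxc6, 679.0 bp in iHoxc9 and 771.5 bp for iHoxc10. Constitutive distal domains had medians of 293.0, 370.0, 422.0, 365.0, 245.0 and 301.0 bp and so followed the same order of lists. Progenitor values carry the width rule, so that comparisons below use the EB and day 4 lists. Members held 9.28 Mb (iHoxc9) to 13.7 Mb (no Dox), and this was 43.1% of the covered length of the EB list and 52.2% of that of iHoxc9. They made up 14.6% of EB domains and 21.9% of iHoxc9 domains. In the other lists a member was seldom broken up: 2 or more domains overlapped it in 449 cases (3.59%) without Dox and in 1303 (10.4%) in iHoxc9.

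Ranks of length were alike between lists. Over the 12522 members, Spearman's rank correlation of length was 0.68 to 0.77 between EBs and the other lists and 0.78 to 0.84 among the other lists, the highest between iHoxc6 and iHoxc10. Over constitutive distal domains it was 0.38 to 0.44 and 0.55 to 0.75. These are correlations across domains, which are not independent replicates and have a narrower range of lengths in the distal class.

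**Figure D5:**
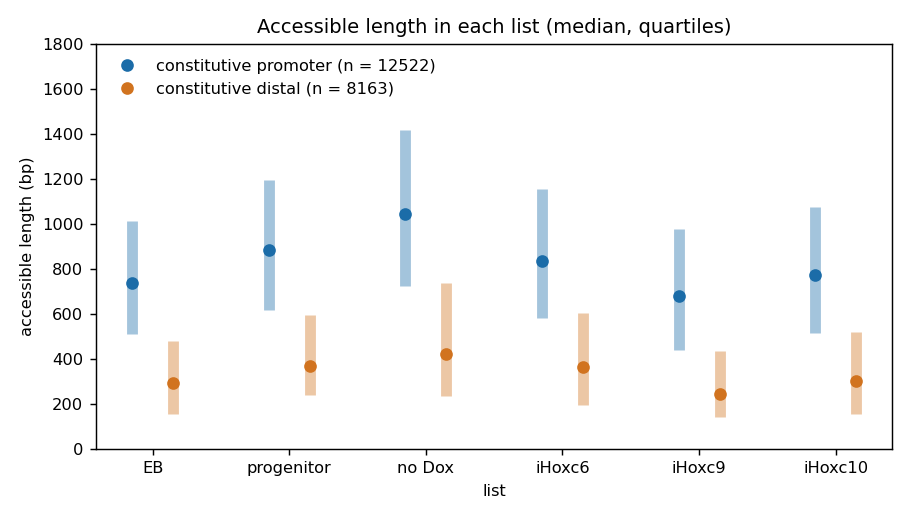
Accessible length in bp (y axis) in each list (x axis) for 12522 constitutive promoter domains (blue) and 8163 constitutive distal domains (orange). Points are medians and bars run from the lower to the upper quartile over domains. The median of members is highest without Dox (1044 bp) and lowest in iHoxc9 (679.0 bp).

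Few members changed length between EBs and all 4 day 4 lists. A member counted as longer or shorter where its length differed at least 1.5-fold in the same direction in all of them. Longer at day 4 were 707 members (5.65%, 5.26 to 6.06), beside 9.93% of all domains held by all lists and 16.5% of constitutive distal domains. Shorter were 233 members (1.86%), beside 3.69% of all and 6.49% of distal domains. The split of longer to shorter rests on the no Dox list and on scale, since 719 were longer and 531 shorter without that list, and 604 and 461 with lengths scaled to each list's median. Members are wider, and at equal width the comparison depended on the class. At 500 to 999 bp, 5.87% of members and 23.2% of distal domains were longer (difference -17.3 percentage points, -19.2 to -15.5), whereas at 150 to 299 bp 10.2% and 11.0% were (-0.860, -3.43 to 2.16).

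Among the members most lengthened, by the smallest change over the 4 lists, were the promoters of the anterior Hox genes Hoxa2 and Hoxa4. The Hoxa2 member (chr6:52163695-52165399) measured 43 bp in EBs and 1705, 1725, 1717, 1086 and 2185 bp in progenitors, no Dox, iHoxc6, iHoxc9 and iHoxc10. The Hoxa4 member (chr6:52190704-52192424) measured 69 bp in EBs and 1721, 1884, 1723, 1314 and 1996 bp in the same order. Both were short only in EBs. At the imprinted gene Peg10 and its divergent neighbour Sgce the domain (chr6:4747808-4748299) measured 33, 492, 3356, 2127, 1704 and 1763 bp. At Jarid2, a Polycomb cofactor, it measured 36, 156, 1007, 1018, 964 and 983 bp (chr13:44840620-44840775).

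The others of the 10 were Fam131b, Fmr1, the X-linked gene of an RNA-binding protein, Fgf13, Mmp17, Mbtps2, a protease of the Golgi, and Sorcs3. Their EB lengths were 29 bp (Mbtps2) to 68 bp (Mmp17), and at day 4 they measured between 484 bp (Mbtps2 in iHoxc9) and 1575 bp (Mmp17 in iHoxc6). A short EB length can stand for a promoter that is open beside the member. The covered bases within 1 kb of the centre were 791 bp in EBs at Fmr1, 601 bp at Fam131b and 597 bp at Mmp17. They were 385 bp at Peg10 and Sgce, 345 bp at Sorcs3, 195 bp at Jarid2 and 163 bp at Fgf13, so the difference from day 4 was smaller there than the lengths give. At Hoxa2 (43 bp), Hoxa4 (69 bp) and Mbtps2 (29 bp) both measures were the same in EBs.

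The members most shortened at day 4 included promoters of genes known from ESCs and epithelia. Epcam, an adhesion protein of epithelia and ESCs, had a domain (chr17:87636462-87636985) of 1566 bp in EBs and 524, 322, 382, 238 and 304 bp in progenitors, no Dox, iHoxc6, iHoxc9 and iHoxc10. Sox15 (chr11:69655477-69655814), a Sox gene of ESCs, measured 726, 338, 172, 157, 133 and 56 bp. In both, the progenitor value lay between the EB value and all day 4 values. Neil2, a DNA glycosylase, fell from 879 bp in EBs to between 39 bp and 135 bp at day 4, and Pde5a, a cGMP phosphodiesterase, from 2124 bp to between 331 bp and 445 bp, though 690 to 961 bp were still covered within 1 kb of the Pde5a centre. The others were Prss35, Fkbp11, Aldh1l1, Erfe, Nfe2l3 and Tmem132b, with EB lengths of 745 bp (Nfe2l3) to 1612 bp (Tmem132b) and day 4 lengths of 34 bp (Prss35 without Dox) to 442 bp (Tmem132b without Dox).

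Over the gene lists, 44 of 497 members of core machinery (8.85%) were longer and 0 were shorter at day 4, beside 5.65% and 1.86% of all members and 9.93% and 3.69% of all domains held by all lists. Cytosolic ribosomal protein genes had 18 of these 44 among 87 members. Their median length was 520.0 bp in EBs, 812.0 bp in progenitors, 983.0 bp without Dox and 657.0 to 800.0 bp in the induced lists. Developmentally regulated genes had 17 longer and 3 shorter of 69 members (24.6% and 4.35%). Of 17 Hox members, 9 were longer and 1 was shorter. The 9 were those of Hoxa2, Hoxa4, Hoxa5, Hoxb4, Hoxb5, Hoxb7, Hoxc4, Hoxc5 and Hoxd8, and the shorter was 1 of the 2 domains of Hoxa7, with 513 bp in EBs, 187 bp without Dox and 45 bp in iHoxc9, the shortest. Of the posterior Hox genes, Hoxa13 measured 332 bp in EBs and 36 to 411 bp at day 4. Hoxc13 measured 1438 bp in EBs, 1272 bp without Dox and 277 to 534 bp in the induced lists.

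The next lists are short, and their counts stand beside the same 5.65% longer and 1.86% shorter of all members. Motor neuron progenitor genes had 3 longer of 10 members, which were those of Olig2 and Sox3 and 1 of Nkx2-2. Olig2, which sets progenitor identity, measured 232, 931, 1366, 1082, 541 and 771 bp in the list order used above. Within 1 kb of the centre of that Nkx2-2 domain, 452 bp were covered in EBs and 440 bp in iHoxc9. At Sox3 these were 650 and 826 bp, and at Olig2 232 and 541 bp. By covered bases the difference was thus smaller at Nkx2-2 and Sox3 than the lengths give. Motor neuron genes had 1 longer and 2 shorter of 12. The longer was Neurog2, a proneural factor, and the shorter by length were the domain of Chat and Slc18a3 and that of the choline transporter Slc5a7. Within 1 kb of the centre of the Chat and Slc18a3 domain, 1422 bp were covered in EBs and 1225 bp without Dox. The difference between these lists was thus smaller there than the lengths give. In the induced lists 251 to 811 bp were covered. At Slc5a7 the covered bases were 842 bp in EBs and 261 to 557 bp at day 4. Mnx1, a motor neuron homeobox gene, measured 387, 289, 1707, 707, 254 and 871 bp, and Chat, the enzyme of acetylcholine synthesis, 1422, 950, 909, 811, 220 and 621 bp. Mnx1 was thus longest without Dox and Chat longest in EBs. In pan-neuronal genes 4 of 16 members were longer, which were 1 domain of Elavl4, 1 of Map2 and 2 neighbouring ones of Elavl3 that merged into 1 at day 4. The Elavl4 member (chr4:110285206-110285892), at a neuronal RNA-binding protein, measured 43, 687, 2824, 624, 577 and 575 bp. The 6 naive pluripotency members included none longer or shorter in all 4 lists, and Klf4, an ESC factor also used in other tissues, measured 1022, 1131, 1940, 1113, 1008 and 930 bp.

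Members were shorter in the induced lists than without Dox, as were distal domains. For each list against no Dox, the median log2 ratio of length over members was -0.26 for iHoxc6, -0.54 for iHoxc9 and -0.37 for iHoxc10, and over constitutive distal domains -0.16, -0.61 and -0.39. In iHoxc6, 2657 members (21.2%) were at least 1.5-fold shorter, beside 23.7% of all domains held by all lists, and 407 (3.25%) were longer, beside 6.49%. In iHoxc9, 5838 (46.6%) were shorter, beside 48.3%, and 143 (1.14%) longer, beside 2.96%. In iHoxc10, 3916 (31.3%) were shorter, beside 34.9%, and 248 (1.98%) longer, beside 4.05%. In all 3 induced lists 1558 members (12.4%) were shorter and 65 (0.519%) longer, beside 14.2% and 1.17%. With lengths divided by each list's median over all domains held by all lists, these counts became 380 and 223, so their split rests on the scale of the lists.

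By the smallest change over the 3 induced lists, the members most shortened were at Shank1, a postsynaptic scaffold, Dok1, Tpbg, Ndrg4 and Pde4a, a cAMP phosphodiesterase. The Pde4a domain (chr9:21165353-21166280) measured 1012 bp in EBs, 928 bp in progenitors and 777 bp without Dox, but 65, 57 and 21 bp in iHoxc6, iHoxc9 and iHoxc10, and the covered bases within 1 kb of its centre in these 3 lists were the same. Shank1 (chr7:44310573-44310761) measured 1082 bp without Dox and 47, 36 and 43 bp, but 586 bp within 1 kb of the centre were covered in iHoxc10. At Dok1, Tpbg and Ndrg4 the covered bases in the induced lists were 265 to 844 bp, against 1130 to 1242 bp without Dox. The members most lengthened were at Tmem98, Cacna1d, a calcium channel subunit, Pitpnm3, Apobr and the pair Kctd19 and Lrrc36. Their lengths were 24 to 54 bp without Dox and 128 to 403 bp in the induced lists.

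The 3 widest members stood apart in width from the rest. Those ranked 1 and 3 by width lay side by side on chromosome 9, at 3009196 to 3038330 and 2999991 to 3008907, over a row of predicted genes (Gm10715, Gm10717 to Gm10722, Gm11168 and Gm17535). They measured 29135 and 8917 bp in progenitors, and in EBs, iHoxc6 and iHoxc10 1 domain of 38343, 38351 and 38346 bp spanned both. The one ranked 2 lay in Sfi1, a centrosome gene (chr11:3184270-3200036, 15767 bp), and measured 15746 to 15836 bp in every list. Whether reads can be placed uniquely in these regions was not tested. Next came those at Brd2, a bromodomain protein, with H2-DMa (4787 bp) and at Notch1, a receptor of neural progenitors. Notch1 (chr2:26500336-26504644) measured 878 bp in EBs, 4309 bp in progenitors, 4470 bp without Dox, 3269 bp in iHoxc6, 1674 bp in iHoxc9 and 3388 bp in iHoxc10, and was thus shortest in EBs and, of the later lists, in iHoxc9.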

How the data were processed

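Accessible domains were analysed as deposited, with 1 list for each of 6 groups of 2 samples. The authors mapped ATAC-seq reads to mm10 (GRCm38) with Bowtie2 2.2.2 and called domains with DomainFinder, and the submitters' processing notes also name Picard 2.8.2. The calling threshold is not given in the sources used here. The deposited values are starts and ends in bp, in no unit of signal, and hold no read count or p-value. Starts were read as in BED and are uncertain by 1 bp.

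TSS were those of protein-coding transcripts in GENCODE M21. Overlap, length, GC content, CpG ratio and exact motif matches on both strands were computed with Python 3.11.15, NumPy 2.4.6, SciPy 1.17.1 and Matplotlib 3.10.9. No test across samples was possible, and shares carry Wilson and their differences Newcombe intervals. The code was tested on simulated data in 22 checks, of which 0 differed.

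The members, gene lists and motifs were chosen with earlier results of these data known. Named members were the 5 widest, the 10 with the largest smallest change each way between EBs and day 4, the 5 each way between no Dox and the induced lists, the 5 genes with most members, genes of the lists, and for each motif the core gene with most motifs upstream, of which 1 is not reported here. The classes of width, of CpG-rich windows and of genes with no member, the X chromosome and the genes with values singled out within lists were chosen after the values were seen.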

Additional observations from a re-analysis of the deposited data

How the results depend on the processing

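No paired analysis was possible because each list was made from both samples of a group, and no replicate could be left out for the same reason. The number of members (12522) lay between 9316, with at least 50% of the progenitor domain covered in every list, and 13970, with promoters of 5 kb to either side, and the number of genes (12738) between 9970 and 13455. The share of promoter domains held by all lists (87.4%) was 70.7% with no minimum width, 93.5% at 300 bp, 65.1% with 50% coverage, 90.1% and 78.7% for promoters of 500 bp and 5 kb, 90.3% with gene records only, 85.7% with lists of equal length, and 89.1%, 89.1% and 88.9% without EBs, iHoxc9 or iHoxc10. It stayed above that of distal domains, 12.6% to 45.9%, in each of these. At 2-fold, 296 members were longer and 78 shorter at day 4 than in EBs, and 42 and 437 in the induced lists than without Dox. Scaling to the list median gave 461 shorter at day 4, and 223 longer and 380 shorter in the induced lists. Without the no Dox list, an alternative chosen after seeing the data, 719 members were longer and 531 shorter at day 4. Over whole domains the median GC content was 63.3% and the CpG ratio 0.764, and at 300 bp the ratio was 0.864. In the 150 bp upstream of the TSS the motif shares were 3.71% (NRF1), 27.2% (NF-Y), 58.2% (Sp/Klf), 11.0% (ETS), 0.950% (YY1), 2.52% (CRE), 0.463% (ZNF143), 1.22% (ZBTB33), 6.13% (E-box), 2.68% (TATA), 17.9% and 9.32% (central and posterior Hox cores) and 0.575% (CTCF), and at 300 bp the CTCF share was 0.175%. With gene records only, the median distance from the TSS was 115 bp and 78.1% covered a TSS, and at 300 bp these were 35.0 bp and 94.0%. The causes were not tested.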

Other observations

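The X chromosome stood apart among the members, a comparison made after X-linked genes had appeared among the members most lengthened. Of 392 X-linked members, 71 (18.1%, 14.6 to 22.2) were at least 1.5-fold longer in all 4 day 4 lists than in EBs, against 635 of 12127 autosomal members (5.24%, 4.85 to 5.65). The difference was 12.9 percentage points (9.35 to 17.0). Shorter members were no more frequent, at 4 X-linked (1.02%) and 229 autosomal ones (1.89%). X-linked members had a median length of 508.5 bp in EBs, 666.5 bp in progenitors, 811.5 bp without Dox, 657.5 bp in iHoxc6, 542.0 bp in iHoxc9 and 589.0 bp in iHoxc10, and autosomal members 746.0, 894.0, 1053, 843.0, 687.0 and 780.0 bp. Against no Dox, 47 of 392 X-linked and 1510 of 12127 autosomal members were shorter in all 3 induced lists. X-linked members were also narrower in progenitors. Over all members, 10.2% of those of 150 to 299 bp and 3.95% of those of 1000 bp and more were longer at day 4. The part of width in the difference between X-linked and autosomal members was not tested. EBs came from another cell line than the day 4 groups, and line and stage cannot be told apart here.

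The share of protein-coding genes with a member was 47.7% (45.6 to 49.9) on chromosome 7, 41.5% (38.4 to 44.6) on X and 1.64% (3 of 183 genes) on Y, against 74.0% (70.5 to 77.2) on chromosome 12, the highest. The 3 Y-linked members were at Uty, a histone demethylase gene, Ddx3y, an RNA helicase gene, and Gm47283. Uty measured 144, 190, 468, 438, 395 and 397 bp and Ddx3y 144, 187, 932, 200, 171 and 187 bp in EBs, progenitors, no Dox, iHoxc6, iHoxc9 and iHoxc10.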
